A study of Oryctolagus cuniculus with 9 samples.

Results

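The ligamentum flavum of the level of intervertebral stress concentration (ISC) was set against that of sham-operated rabbits (Control), over all 23407 named gene rows of the deposited tables. The comparison uses 6 of the 9 libraries of the series, 3 ISC and 3 Control, and 14348 genes had enough signal to be tested. The ligamentum flavum is the elastic ligament that joins the laminae of neighbouring vertebrae. All libraries are labelled as male New Zealand white rabbits aged 70 weeks. The protocol in the labels, which all groups carry, describes removal of the L3-4 supraspinal muscle and instrumented posterolateral fusion of L2-3 and L4-5 at 18 weeks of age. The ISC libraries are labelled as the level where stress concentrates, the Control libraries as sham operation, and 3 further libraries (Fused), used here for a second comparison, as the fused level. The labels do not say which libraries come from the same animal or whether any pools animals, so the tests see only how far these samples lie apart, and that spread may be technical.

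Each value is a gene's read count divided by a size factor of its library, called the scaled value below. Changes are differences of mean log2(scaled value + 1), ISC minus Control, and were tested with limma. A call means an adjusted p under 0.05, by the Benjamini-Hochberg method over all genes tested. Of all genes tested 11.5% had an unadjusted p under 0.05. Groups are called separated where all ISC libraries lay above all Control libraries (9.54% of all genes tested) or all lay below (8.73%). The 6 libraries held between 1425820 and 1869209 reads in genes, and a gene with 3 reads had a scaled value of 2.40 to 3.58. Libraries of the ISC group were less alike than those of the Control group: Pearson's r of log2 values across genes was 0.892 to 0.925 among ISC libraries and 0.950 to 0.968 among Control libraries. ISC replicate 2 stood apart, with 5.00% of its reads in the haemoglobin gene HBB2, against 0.480% and 0.421% in the other ISC libraries and 0.0963% to 0.248% in Control. Summed scaled values of 23 skeletal muscle genes were 1303, 62.1 and 74.2 in ISC replicates 1 to 3 and 5229, 101 and 739 in Control replicates 1 to 3, so that Control replicate 1 held the most muscle RNA. Of the tendon and ligament markers, MKX, a transcription factor of tendon, was measured in all 6 libraries (13.9, 19.1 and 30.1 in ISC, 18.9, 9.58 and 13.9 in Control). TNMD, a tendon membrane protein, was at 0 in 4 of the 6 libraries, with 12.04 in ISC replicate 3 and 0.799 in Control replicate 2.

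**Figure D1:**
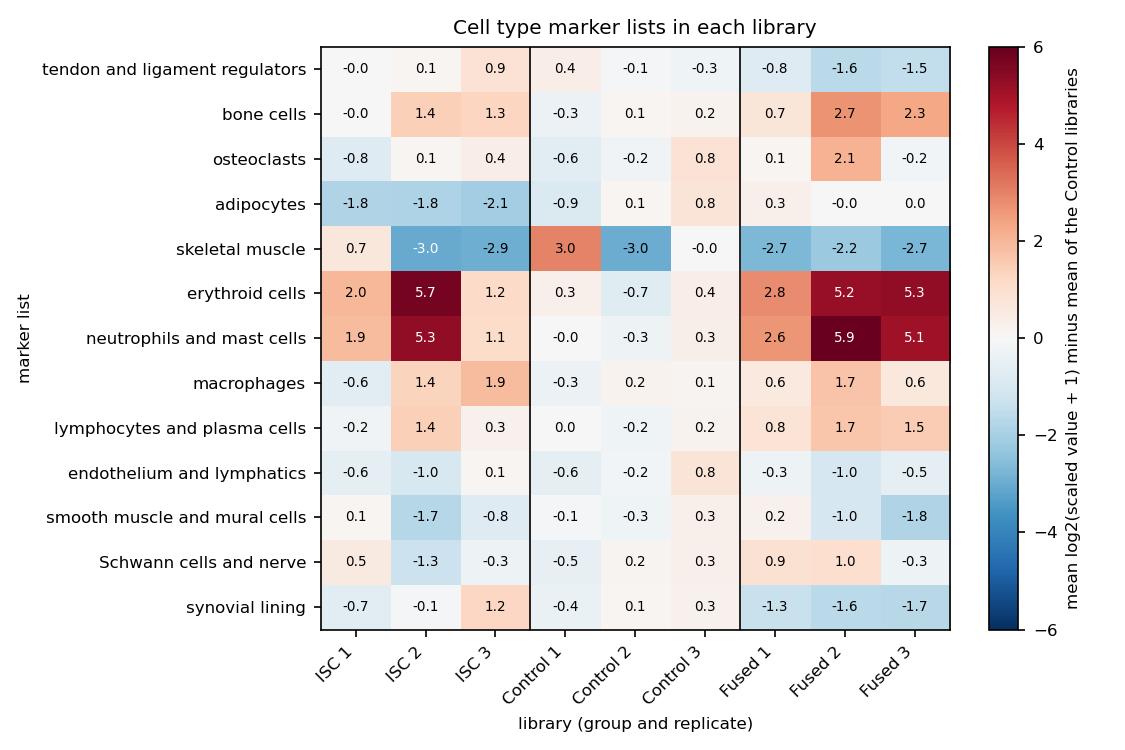
Cell type marker lists in each library. Each cell gives the mean of log2(scaled value + 1) over a list's tested members in 1 library (columns: ISC, Control and Fused replicates 1 to 3) minus the mean over the Control libraries; blue is lower and red is higher. Adipocyte genes are low in all 3 ISC libraries, erythroid and neutrophil genes are highest among the 6 ISC and Control libraries in ISC replicate 2, and skeletal muscle genes are highest in Control replicate 1.

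Ligament fibroblasts make a matrix of elastic fibres and of type I and type III collagen. Cartilage and fibrocartilage are built instead on type II collagen, with types IX and XI on and in its fibrils, and on aggrecan, which is held on hyaluronan by link proteins and carries chondroitin sulphate chains that bind water. The transcription factor SOX9 drives many of these genes in chondrocytes, and fibrocartilage is known to form in ligaments and tendons where they attach to bone or are compressed.

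In the ISC ligament 4 cartilage collagen genes rose, and they account for most of the 7 genes called in the whole comparison. Limma called 6 genes higher and 1 lower in ISC (0.0488% of the 14348 tested; 0.0418% in the higher direction and 0.00697% in the lower). On recovered reads edgeR called 5 and DESeq2 228, of which 164 were higher and 64 lower in ISC. The 4 cartilage collagens called were COL2A1, COL9A1, COL9A2 and COL11A1. All 8 tested cartilage collagens had a positive change, against 50.2% of all genes tested, with a median of 4.92 against 0.00 for all genes. In 7 of the 8 the ISC libraries all lay above the Control libraries, a separation that 9.54% of all genes tested showed in this direction.

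COL2A1, the chain of type II collagen (oryCun2, Un0251:72092-94424, minus strand), had scaled values of 3555, 7738 and 5171 in ISC, against 18.9, 3.19 and 9.57 in Control. Every ISC library stood far above every Control library, and the groups did not come near each other. The change was 9.09 on the log2 scale (SE 0.54, limma adjusted p = 0.00282), the largest among the cartilage collagens, and per kilobase of transcript the mean scaled value was 1104 in ISC and 2.12 in Control. It stayed past the threshold under all 17 alternatives tried for single genes, with adjusted p up to 0.0425. In bulk tissue a change in the number of cells of a type and a change in RNA per cell cannot be told apart, here and for every gene below.

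COL9A1, a chain of type IX collagen, which decorates type II fibrils (chromosome 12:56889129-56995695, minus strand), had 87.9, 78.8 and 80.3 in ISC, against 0.943, 0 and 0.870 in Control. The ISC libraries were close to each other, and the Control libraries held 2 reads in all against 228 in ISC. The ratio of ISC to Control was 142.6 with a 95% counting interval of 39.0 to 1185, which covers counting error only, and the log2 change was 5.76 (SE 0.40, limma adjusted p = 0.00465); with a pseudocount of 0.1 in place of 1 the adjusted p was 0.083. COL9A2, a second chain of type IX collagen (chromosome 13:126185170-126198369, plus strand), had 172, 150.4 and 179.6 in ISC, against 9.43, 3.19 and 4.35 in Control. Its change was 4.77 (SE 0.36, limma adjusted p = 0.00465), and without ISC replicate 3 the adjusted p was 0.052. COL9A3, the third chain, was separated in the same way, with 131, 31.0 and 63.2 in ISC and 5.66, 3.99 and 1.74 in Control, but was not called (change 3.85, limma adjusted p = 0.139).

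COL11A1, a chain of type XI collagen, which sets the diameter of cartilage fibrils (chromosome 13:61054050-61262804, plus strand), had 2112, 3032 and 2066 in ISC, against 138, 26.4 and 23.5 in Control. The ISC libraries lay within a narrow range, well above Control replicate 1, the highest of the Control libraries. The change was 5.71 (SE 0.61, limma adjusted p = 0.0326), and 9 of 17 alternatives kept it past the threshold. COL11A2, the partner chain of type XI collagen, had 595, 689 and 561 in ISC and 123, 3.99 and 19.1 in Control (change 4.72, limma adjusted p = 0.267). COL10A1, the collagen of hypertrophic cartilage, had 79.3, 20.3 and 1095 in ISC and 1.89, 7.99 and 0.870 in Control (change 5.08, limma adjusted p = 0.314). For COL10A1 the ISC libraries differed widely, with ISC replicate 3 far above the other 2. COL27A1, a fibrillar collagen of cartilage that other tissues also make, was the one member whose groups overlapped, with 349.6, 186 and 184 in ISC and 189, 121 and 191 in Control.

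Markers of bone cells, which lie next to the attachments of the ligament, were summed beside these results. Their scaled values added up to 3260, 2480 and 1947 in ISC, against 3590, 2256 and 2067 in Control, so the groups overlapped. The mean of log2(scaled value + 1) over the tested members was 3.97, 5.43 and 5.26 in ISC and 3.64, 4.09 and 4.21 in Control. Of the bone markers 2, BGLAP (osteocalcin) and IFITM5, were at 0 in all 6 libraries. Of the 12 tested members 10 had a positive and 2 a negative change (median 0.71, and 1.43 without ISC replicate 1). The groups were separated upward for 1 member and downward for 1, against 9.54% and 8.73% of all genes tested. Limma called none of them, with 3 at an unadjusted p under 0.05; edgeR called none and DESeq2 called 1 higher. Their part in the cartilage collagen results was not tested.

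**Figure D2:**
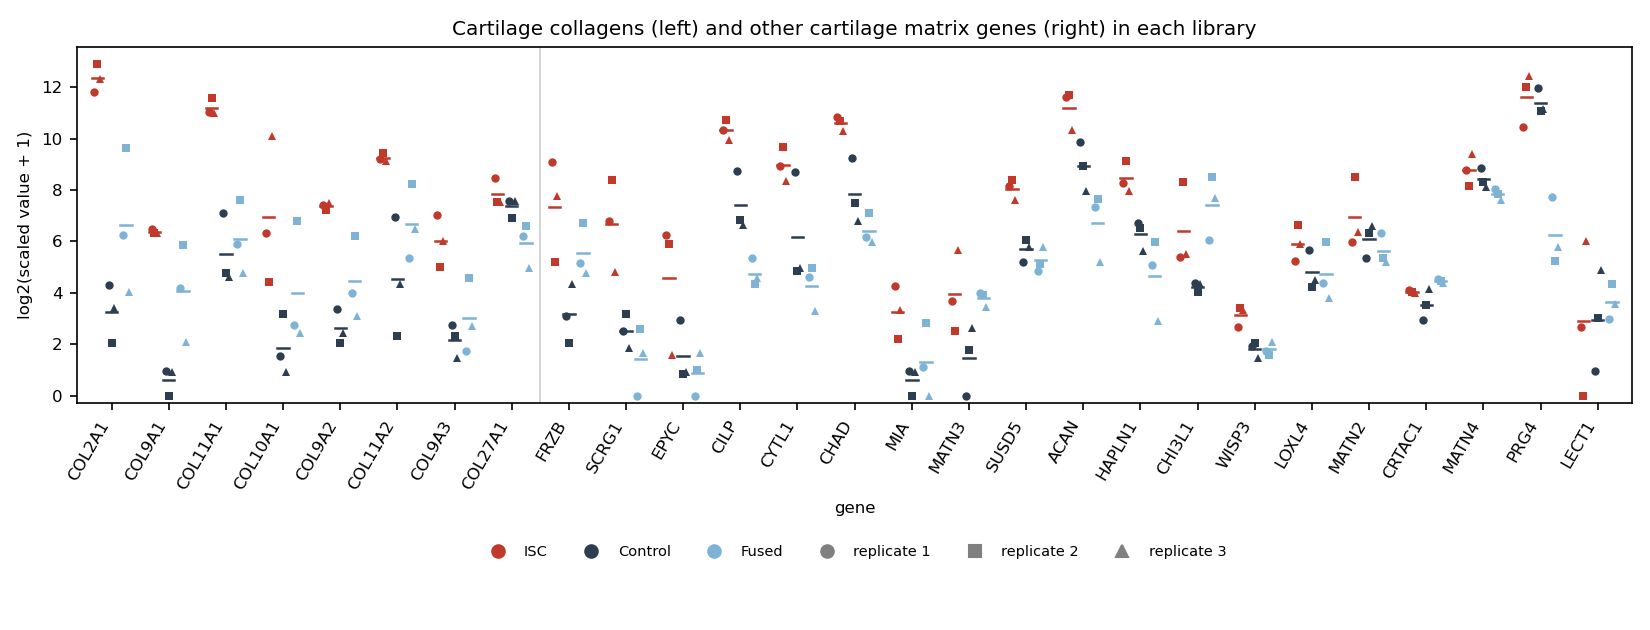
Cartilage collagens (left) and other cartilage matrix genes (right) in each library. The y axis is log2(scaled value + 1), each point is 1 library (ISC, Control and Fused, replicates 1 to 3), and short lines are group means. ISC points lie above all Control points for 7 of the 8 collagens, and COL2A1 has the widest gap.

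The non-collagenous cartilage matrix genes had higher values in ISC as a group, without single genes passing the test. Of 25 genes on the list 19 were tested, 18 had a positive change, and the median was 2.28 (2.04 to 2.58 with any 1 library left out). In 10 the ISC libraries all lay above Control, against 9.54% of all genes tested. Limma called none of them, with 14 at an unadjusted p under 0.05, against 11.5% of all genes tested; edgeR called none and DESeq2 called 9 higher.

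ACAN, which encodes aggrecan, had 3136, 3283 and 1284 in ISC, against 939.9, 489 and 249.6 in Control. The lowest ISC library was above the highest Control library by a modest margin, and Control replicate 1 was the highest of its group (change 2.28, SE 0.53, limma adjusted p = 0.314). HAPLN1, the link protein that holds aggrecan on hyaluronan, had 309, 555 and 251 in ISC and 105, 91.8 and 48.7 in Control (change 2.16, SE 0.37, limma adjusted p = 0.183). SUSD5, a protein with a hyaluronan-binding link domain, had 284, 335 and 193 in ISC and 35.8, 66.3 and 54.8 in Control (change 2.36, SE 0.29, limma adjusted p = 0.0662). The groups did not overlap for either gene. CILP, a protein of the intermediate layer of cartilage, had 1283, 1694 and 992 in ISC and 422, 113 and 100.0 in Control (change 2.93, limma adjusted p = 0.194). SCRG1, a gene that rises as cells become chondrocytes, had 110.4, 333 and 27.1 in ISC and 4.71, 7.99 and 2.61 in Control (change 4.15, limma adjusted p = 0.259). CYTL1, a secreted protein made by chondrocytes, shows how far 1 Control library reached, with 491, 810.4 and 324 in ISC and 412, 27.9 and 30.4 in Control, so that the groups overlapped through Control replicate 1.

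The regulators of chondrocytes had changes of both signs. Of 13 tested, 8 had a positive change, with a median of 0.33 that was 0.66 without ISC replicate 1, 0.63 without ISC replicate 2 and 0.10 without ISC replicate 3. The groups did not overlap for 2 higher and 2 lower genes, against 9.54% and 8.73% of all genes tested, and limma called none, with 4 at an unadjusted p under 0.05; edgeR called none and DESeq2 called 1 higher. SOX9 had 139, 146 and 80.3 in ISC and 131, 54.3 and 44.4 in Control, and the groups overlapped (change 0.78, SE 0.42, limma adjusted p = 0.519). PTH1R, the receptor for parathyroid hormone-related protein, had 188, 341 and 137 in ISC and 67.9, 35.1 and 48.7 in Control (change 2.06, limma adjusted p = 0.194). PTHLH, which encodes that ligand, had the opposite sign, with 35.4, 11.9 and 35.1 in ISC and 62.2, 67.1 and 56.5 in Control (change -1.29, limma adjusted p = 0.352). Receptor and ligand were thus each separated between the groups, in opposite directions, and neither passed the test. TRPS1, a zinc finger repressor of the growth plate, had 23.6, 28.6 and 28.1 in ISC and 11.3, 12.8 and 10.4 in Control (change 1.15, limma adjusted p = 0.314).

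Enzymes that build and finish the matrix had mostly positive, smaller changes. For the synthesis of sulphated glycosaminoglycans 20 of 25 tested genes had a positive change (median 0.34, and 0.165 without ISC replicate 3), and limma and both count tools called none, with 5 at an unadjusted p under 0.05. CHST3, which sulphates chondroitin, had 161, 275 and 164 in ISC and 136, 88.6 and 73.1 in Control (change 1.005, limma adjusted p = 0.333). Of the genes for collagen modification and secretion, 24 of 28 had a positive change (median 0.43). In 11 the ISC libraries all lay above Control, against 9.54% of all genes tested. Limma called none, with 9 at an unadjusted p under 0.05, against 11.5% of all genes tested. None was called by edgeR, and DESeq2 called 3 higher. PLOD2, which hydroxylates the telopeptide lysines used for cross-links, had 441, 1393 and 701 in ISC and 260.2, 228 and 166 in Control, without overlap (change 1.81, SE 0.40, limma adjusted p = 0.294). P4HA3, a subunit of prolyl hydroxylase, had 5.36, 13.1 and 17.1 in ISC and 0.943, 0 and 1.74 in Control (change 2.75, SE 0.60, limma adjusted p = 0.294). These were 33 reads in ISC and 3 in Control, a ratio of 13.8 with a 95% interval of 4.32 to 70.1 that covers counting error only. Among 8 cross-linking enzymes LOXL3 had 366, 419 and 633 in ISC and 157, 185 and 144 in Control (change 1.51, SE 0.23, limma adjusted p = 0.145). LOX itself had 6207, 4391 and 2330.4 in ISC and 4260.2, 4968 and 3652 in Control, and the groups overlapped, with a change of -0.09 that was 0.29 without ISC replicate 3.

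SRPX2, a secreted protein with sushi repeats that has been tied to cell migration and adhesion, was the gene that limma called among the matricellular and adhesion proteins. It had 66.5, 82.4 and 90.3 in ISC, against 11.3, 6.39 and 5.22 in Control. All ISC libraries lay several times above all Control libraries (change 3.28, SE 0.33, limma adjusted p = 0.0261), and 10 of 17 alternatives kept it past the threshold. The call was lost without ISC replicate 2 or 3, without Control replicate 2 or 3, without both ISC replicate 2 and Control replicate 1, without the mean-variance trend and with the replicate number as a block. Of the 33 tested genes of that list 24 had a positive change, and the groups did not overlap for 10 higher and 3 lower genes, against 9.54% and 8.73% of all genes tested. The median was 0.63, and 0.36 without Control replicate 3 or, leaving out ISC replicate 2 or 3, 0.96 or 0.27. Of these genes 16 had an unadjusted p under 0.05 in limma, edgeR called 1 higher and DESeq2 called 9 higher. THBS1, the adhesive glycoprotein thrombospondin 1, which can activate latent TGF-beta, had 2329, 3951 and 11027 in ISC and 796, 196 and 137 in Control (change 4.07, SE 0.75, limma adjusted p = 0.215). TNN, tenascin N, had 81.5, 41.8 and 261 in ISC and 2.83, 7.19 and 19.1 in Control (change 3.51, limma adjusted p = 0.294). For both genes ISC replicate 3 was the highest and the groups stayed apart. SMOC1, a calcium-binding matrix protein, had 151, 218 and 169 in ISC and 53.7, 75.9 and 82.6 in Control (change 1.34, limma adjusted p = 0.182).

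The small leucine-rich proteoglycans, which bind collagen fibrils and regulate their thickness, had a median change of 1.0006 over 14 tested genes. Of these 11 were positive and 4 separated upward, against 9.54% of all genes tested. Limma called none, with 6 at an unadjusted p under 0.05; edgeR called none and DESeq2 called 5 higher. CHAD, chondroadherin, had 1815, 1658 and 1245 in ISC and 611, 178 and 109.6 in Control (change 2.76, SE 0.56, limma adjusted p = 0.259). FMOD, fibromodulin, had 2260.3, 7154 and 7062 in ISC and 1028, 1839.9 and 919 in Control (change 2.01, SE 0.50, limma adjusted p = 0.314). For these genes every ISC library was above every Control library. ASPN, asporin, varied more, with 221, 948 and 2302 in ISC and 274, 111 and 112 in Control, and ISC replicate 1 fell within the Control range.

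The collagens and elastic fibre proteins that make up the bulk of a ligament were less clearly apart. The 13 tested fibrillar and fibril-associated collagens had a median change of 0.95 (0.58 to 1.34 with 1 library left out). Of these 9 had a positive change, with 3 separated upward and none downward, against 9.54% and 8.73% of all genes tested. The 3 were COL16A1, COL5A2 and COL12A1. Limma and edgeR called none, with 5 at an unadjusted p under 0.05 in limma, and DESeq2 called 2 higher. COL1A1 had 3343, 20579 and 13586 in ISC and 3144, 5379.9 and 3519 in Control (change 1.32, SE 0.67, limma adjusted p = 0.5004). COL3A1 had 15876, 54987 and 22844 in ISC and 13155, 21395 and 9799 in Control (change 0.95, SE 0.71, limma adjusted p = 0.638). In both genes ISC replicate 1 lay within the Control range and ISC replicate 2 was the highest. COL12A1, a collagen on the surface of fibrils, had 1464, 3219 and 7639 in ISC and 579.8, 1176 and 889.8 in Control, without overlap (change 1.96, limma adjusted p = 0.333). ELN, elastin, had 1757, 3754 and 1260.0 in ISC and 1394, 2046 and 1001 in Control, and the groups overlapped (change 0.51, SE 0.44, limma adjusted p = 0.678). Among 19 elastic fibre genes 9 had a positive and 10 a negative change (median -0.02, and -0.15 to 0.11 with 1 library left out, the ends without ISC replicate 3 and Control replicate 2), and limma and both count tools called none, with 4 at an unadjusted p under 0.05. FBLN1, fibulin 1, was 1 of 2 members with separated groups, both lower in ISC, a share near the 8.73% of all genes tested, with 2957, 1371 and 691 in ISC and 3379.7, 3809 and 3026 in Control (change -1.26, limma adjusted p = 0.398).

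**Figure D3:**
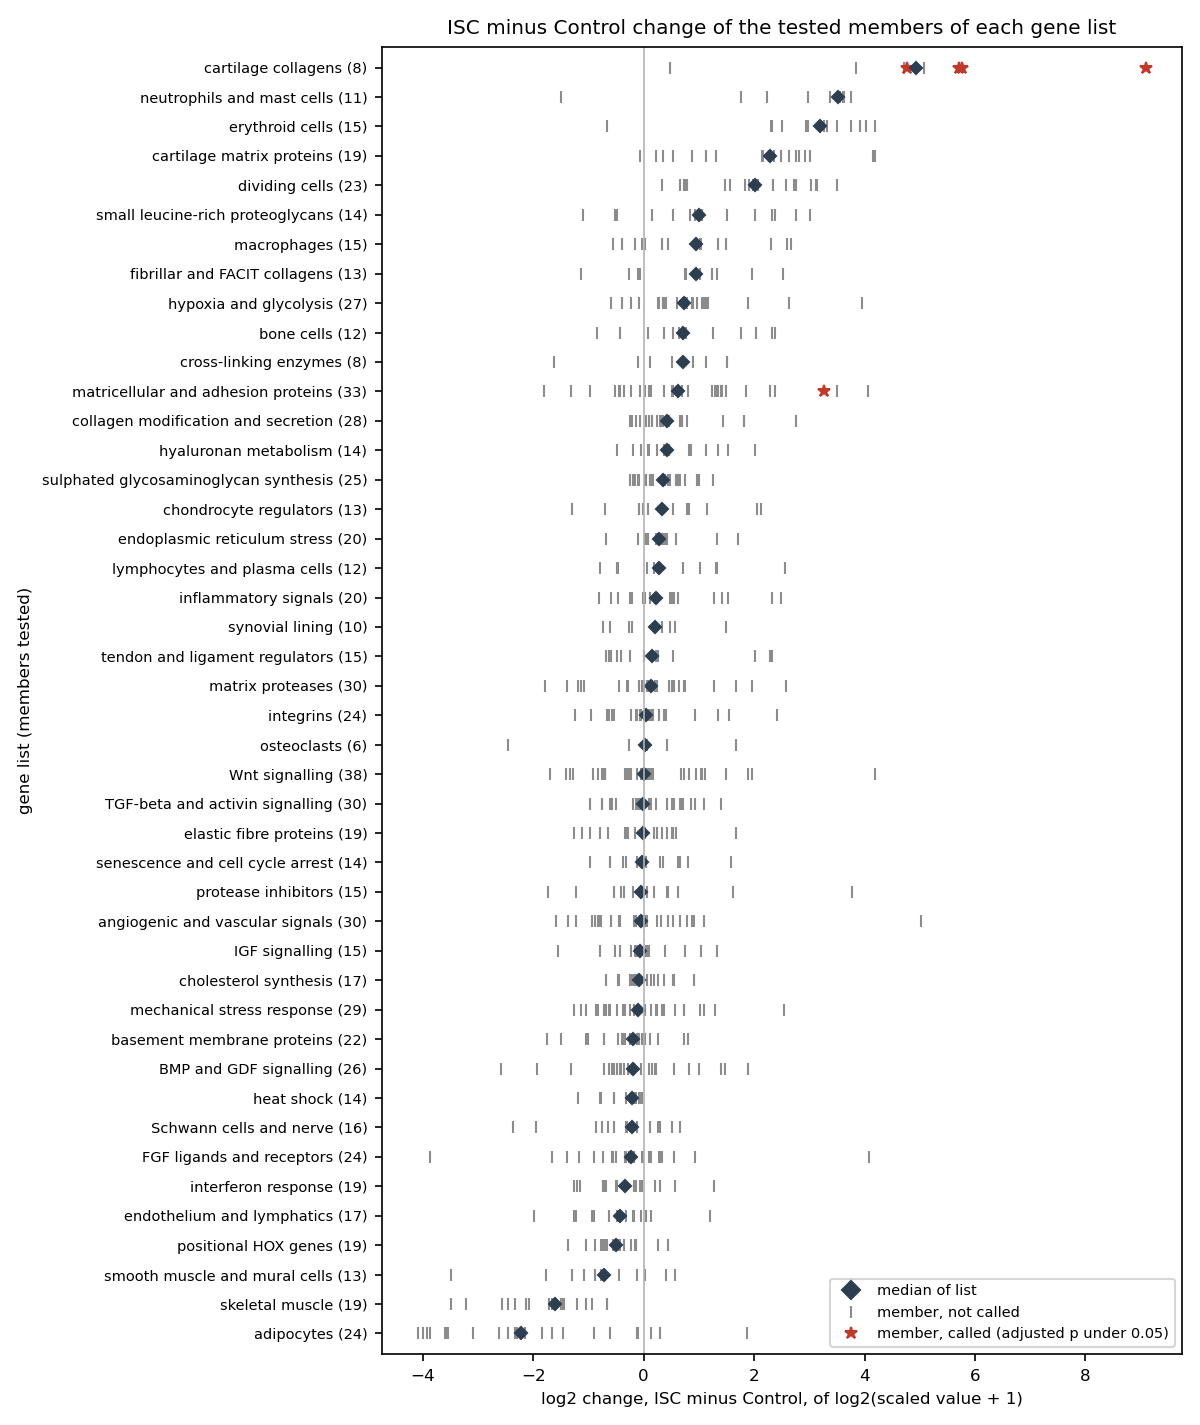
Change of every tested member of the 44 gene lists. The x axis is the log2 change, ISC minus Control, each tick is a gene, diamonds are list medians and stars mark genes called by limma. The cartilage collagens lie farthest to the right, with a median of 4.92, and the adipocyte genes farthest to the left, with a median of -2.21.

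Limma called none of the signalling genes below, and the calls of the count tools stand beside each list. FGF9, a growth factor of the FGF family, had 9.65, 3.58 and 1.003 in ISC, against 23.6, 6.39 and 5.22 in Control. The groups overlapped through ISC replicate 1, and ISC replicate 3 was near a single read (change -1.18, SE 0.77, limma adjusted p = 0.586). In the authors' deposited table its log2 fold change was -1.31 with a q-value of 0.802. FGF18, a growth factor for chondrocytes, was spread over the whole range within ISC, with 1.07, 10.7 and 45.1, against 5.66, 10.4 and 6.96 in Control. FGF2 did not exceed 3.01 in ISC or 3.48 in Control, which is at the limit of detection, and IL6 was at 0 in 4 of the 6 libraries. The receptors FGFR1 (change 0.27) and FGFR2 (change 0.34) overlapped between the groups.

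FGF10, a ligand of the fibroblast and fat lineages, had 34.3, 14.3 and 18.1 in ISC and 61.3, 64.7 and 78.3 in Control (change -1.66, SE 0.33, limma adjusted p = 0.259). SPRY2, an inhibitor induced by FGF signalling, had 36.5, 14.3 and 42.1 in ISC and 94.3, 61.5 and 73.1 in Control (change -1.38, SE 0.40, limma adjusted p = 0.333). For both genes every ISC library lay below every Control library, a separation that 8.73% of all genes tested showed in this direction. Of 24 tested genes of the FGF list 8 had a positive and 16 a negative change (median -0.24, and -0.11 without Control replicate 1 or, leaving out ISC replicate 2 or 3, -0.13 or -0.51); limma and edgeR called none, with 4 at an unadjusted p under 0.05, and DESeq2 called 2 lower.

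The ligands of the TGF-beta family overlapped between the groups. TGFB1 had 25.7, 47.7 and 44.1 in ISC and 12.3, 32.7 and 20.9 in Control (change 0.86, SE 0.41, limma adjusted p = 0.465). TGFB2 had 26.8, 31.0 and 129 in ISC and 17.9, 45.5 and 28.7 in Control (change 0.72, limma adjusted p = 0.676). TGFB3 had 195, 235 and 306 in ISC and 217, 217 and 186 in Control (change 0.23, limma adjusted p = 0.686). PMEPA1, a target that feeds back on TGF-beta signalling, was apart, with 67.6, 119 and 150.5 in ISC and 46.2, 43.9 and 30.4 in Control (change 1.41, SE 0.32, limma adjusted p = 0.313). CTGF, a matricellular protein often read as a TGF-beta and YAP target, had 4998, 1127 and 9968 in ISC and 4908, 3549.6 and 2429 in Control. The direction of CTGF rested on single libraries, since its change was 0.14 and became -0.55 without ISC replicate 3. Over the 30 tested genes of this list the median change was -0.01, and -0.06 without ISC replicate 3 to 0.21 without ISC replicate 1. Limma and edgeR called none, and DESeq2 called 1 higher. An unadjusted p under 0.05 in limma was found for 4, a share near the 11.5% of all genes tested.

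Among BMP genes, the antagonist GREM1, which binds and blocks BMPs, had 38.6, 37.0 and 88.3 in ISC, against 12.3, 10.4 and 16.5 in Control. Every ISC library was above every Control library (change 1.89, SE 0.39, limma adjusted p = 0.274). BMP4, a ligand that it can bind, had the opposite sign, with 129, 45.4 and 27.1 in ISC and 264, 206 and 168 in Control (change -1.93, SE 0.51, limma adjusted p = 0.314). Of the 26 tested genes of the BMP list 10 had a positive and 16 a negative change (median -0.19, and -0.09 without ISC replicate 2 or -0.08 without Control replicate 3). Limma and edgeR called none of them, with 6 at an unadjusted p under 0.05, and DESeq2 called 1 higher and 1 lower.

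Among Wnt genes the secreted antagonist FRZB had 540.4, 35.8 and 218 in ISC, against 7.54, 3.19 and 19.1 in Control. The groups did not overlap, but ISC replicate 2 was near the highest Control library (change 4.19, SE 0.96, limma adjusted p = 0.314). SFRP4, another secreted antagonist, had 181, 266 and 449 in ISC and 831, 795 and 464 in Control (change -1.27, limma adjusted p = 0.333). RSPO2, which amplifies Wnt signals at the receptor, had 89.0, 78.8 and 64.2 in ISC and 33.0, 47.9 and 27.0 in Control (change 1.11, SE 0.26, limma adjusted p = 0.314). Of 38 tested Wnt genes 19 had a positive and 19 a negative change, 4 were separated upward, a share near the 9.54% of all genes tested, and 7 downward, against 8.73%. Limma and edgeR called none, with 11 at an unadjusted p under 0.05; DESeq2 called 1 higher.

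Of the genes that respond to mechanical load, TRPV4, a calcium channel opened by stretch and osmotic change in chondrocytes, had 92.2, 116 and 26.1 in ISC, against 21.7, 7.19 and 6.96 in Control. ISC replicate 3 was only a little above Control replicate 1 (change 2.55, SE 0.63, limma adjusted p = 0.314). KCNK5, a potassium channel with tandem pore domains that is not on the list of load-responsive genes, was among the genes with the smallest p that were not called, with 118, 84.7 and 109 in ISC and 34.9, 14.4 and 12.2 in Control (change 2.42, SE 0.39, limma adjusted p = 0.156). WWTR1, which encodes the transcriptional coactivator TAZ, had 729, 672 and 823 in ISC and 427, 447 and 457 in Control (change 0.73, SE 0.16, limma adjusted p = 0.294). AJUBA and JUN, on the same list, were separated downward. AJUBA had 48.3, 21.5 and 32.1 in ISC and 65.0, 68.7 and 67.8 in Control (change -1.04, limma adjusted p = 0.333). JUN had 179, 76.4 and 199.6 in ISC and 566, 248 and 270.5 in Control (change -1.26, limma adjusted p = 0.363). The list of 29 load-responsive genes as a whole showed 14 positive and 15 negative changes (median -0.10, and -0.34 without ISC replicate 3 to 0.14 without Control replicate 1). In this list 4 were separated upward and 2 downward, against 9.54% and 8.73% of all genes tested. Limma and edgeR called none, with 5 at an unadjusted p under 0.05 in limma, and DESeq2 called 2 higher.

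**Figure D4:**
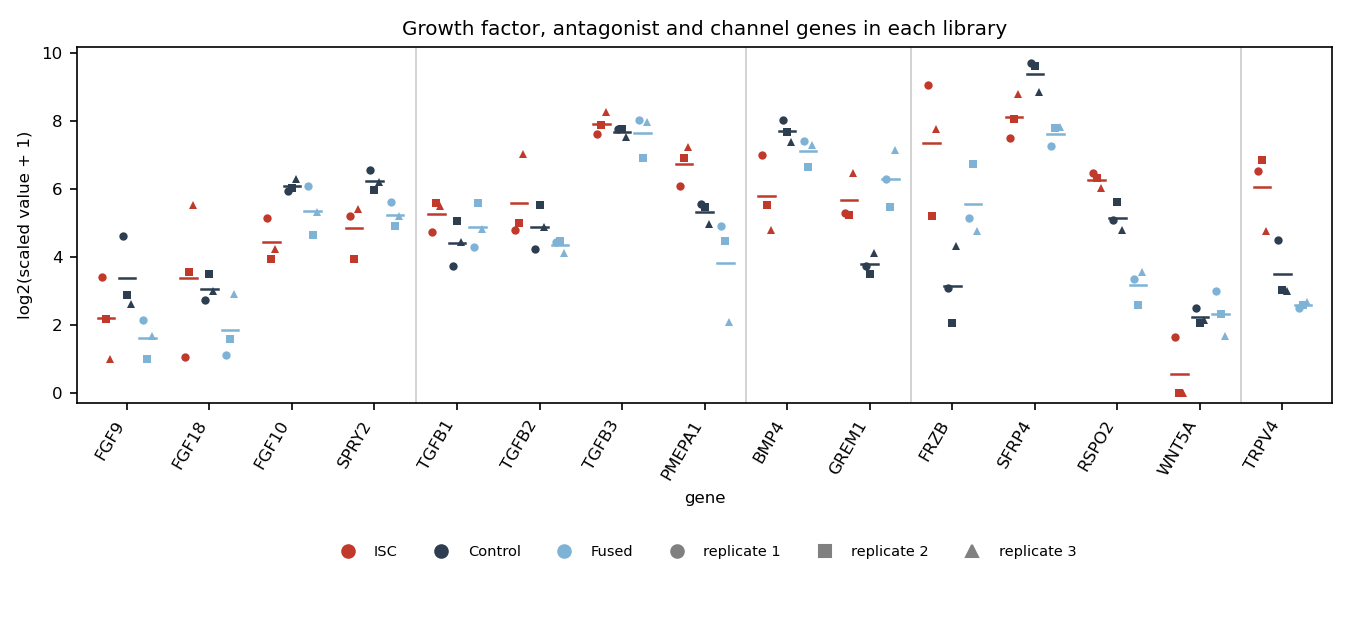
Growth factors, antagonists and a channel gene in each library. The y axis is log2(scaled value + 1), each point is 1 library (ISC, Control and Fused, replicates 1 to 3), and short lines are group means. FGF10, SPRY2, BMP4 and SFRP4 lie lower in all 3 ISC libraries than in all 3 Control libraries, while PMEPA1, GREM1, FRZB, RSPO2 and TRPV4 lie higher; FGF9 and TGFB1-3 overlap.

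Genes of fat cells had lower values in ISC. Of 24 tested adipocyte genes 21 had a negative change, with a median of -2.21 (-2.76 to -1.68 with any 1 library left out). For 14 every ISC library lay below every Control library, against 8.73% of all genes tested. Limma called none, with 17 at an unadjusted p under 0.05; edgeR called none and DESeq2 called 13 lower. The authors' deposited table called 16 of these genes lower and 1 higher, at a background of 0.649% of all rows called lower. The summed scaled values of the list were 2014, 2079 and 1858 in ISC, against 3053, 5971 and 10365 in Control. The part played by the amount of fat in each specimen was not tested.

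PCK1, an enzyme of glyceride glycerol synthesis in fat, had 5.36, 1.19 and 3.01 in ISC, against 35.8, 57.5 and 89.6 in Control (change -3.92, SE 0.51, limma adjusted p = 0.0863). GPD1, which makes glycerol 3-phosphate, had 19.3, 5.97 and 9.03 in ISC and 80.1, 217 and 324 in Control (change -3.996, SE 0.57, limma adjusted p = 0.123). THRSP, a nuclear protein of lipid synthesis, had 4.29, 7.16 and 4.01 in ISC and 33.9, 137 and 216 in Control (change -4.08, SE 0.64, limma adjusted p = 0.156). In these genes the ISC libraries were uniformly low and the Control libraries spread widely, with Control replicate 1 the lowest and Control replicate 3 the highest. KLB, the co-receptor for endocrine FGFs, had 1.07, 1.19 and 2.01 in ISC and 15.1, 41.5 and 61.8 in Control (change -3.87, limma adjusted p = 0.129). LEP, leptin, had 2.14, 1.19 and 2.01 in ISC and 14.1, 36.7 and 63.5 in Control (change -3.60, limma adjusted p = 0.156). Both genes were under the value of 3 reads in every ISC library. ADIPOQ, adiponectin, had much higher values throughout, with 643, 597 and 809.6 in ISC and 791, 1202 and 2143 in Control, and the groups overlapped (change -0.90, SE 0.35, limma adjusted p = 0.400).

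**Figure D5:**
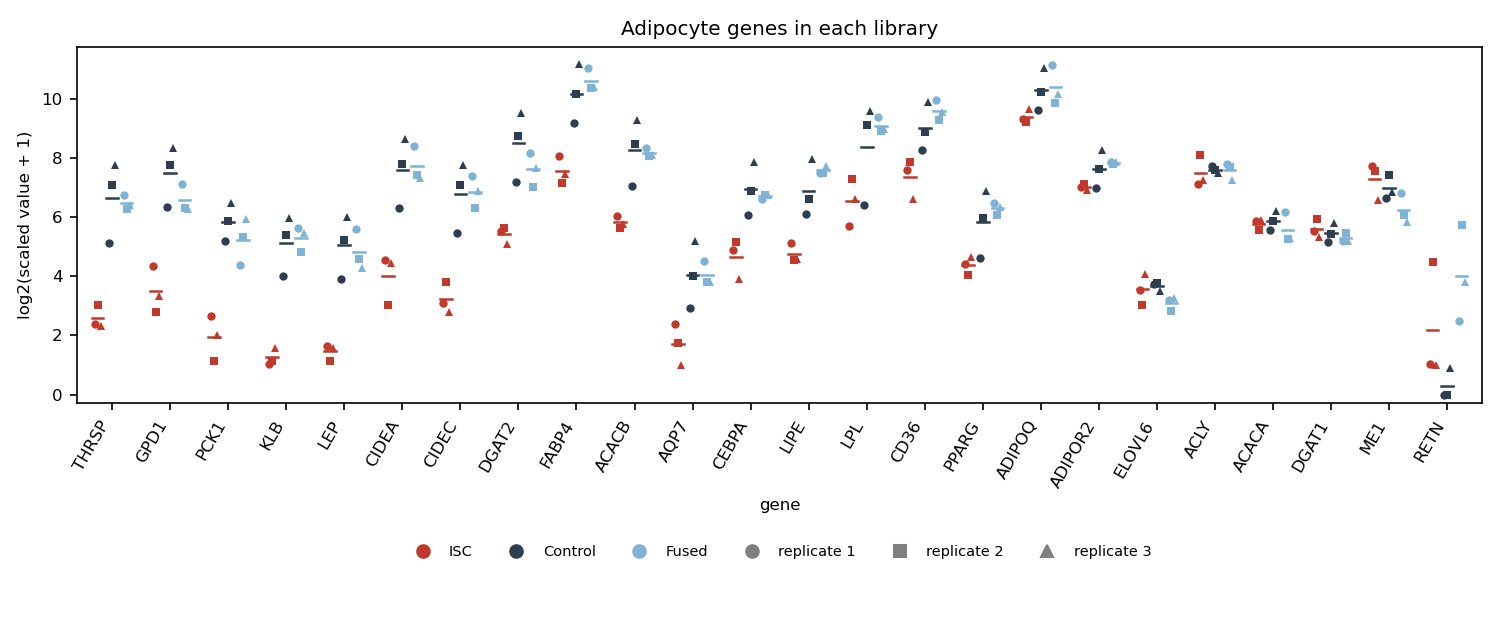
Adipocyte genes in each library. The y axis is log2(scaled value + 1), each point is 1 library (ISC, Control and Fused, replicates 1 to 3), and short lines are group means. PCK1, GPD1, THRSP, KLB and LEP lie lower in the ISC libraries than in all Control and all Fused libraries.

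Genes of blood-forming and dividing cells had higher values in ISC, and the size rested on ISC replicate 2. Of 15 erythroid genes 14 had a positive change (median 3.20, and 1.77 without ISC replicate 2), of 11 neutrophil and mast cell genes 10 (median 3.52, and 1.93 without it), and of 23 dividing-cell genes all 23 (median 2.01, and 0.74 without it). Limma and edgeR called none of these genes, although 12 erythroid, 9 neutrophil and mast cell and 9 dividing-cell genes had an unadjusted p under 0.05; DESeq2 called 4 higher in each list. ALAS2, the first enzyme of haem synthesis in red cells, had 217, 2732 and 282 in ISC and 119, 35.1 and 83.5 in Control. TOP2A, a topoisomerase of dividing cells, had 17.2, 273 and 18.1 in ISC and 5.66, 4.79 and 6.96 in Control. S100A8, a calcium-binding protein of neutrophils, had 207, 3382 and 108 in ISC and 41.5, 17.6 and 52.2 in Control. In each of these genes the other 2 ISC libraries were also above all Control libraries. Skeletal muscle genes had a median change of -1.60, which became -0.15 without Control replicate 1 and -2.90 without Control replicate 2 (-2.61 and -0.92 when ISC replicate 1 or 2 was left out), and the groups overlapped for all 19; limma and both count tools called none, with 1 at an unadjusted p under 0.05. The cartilage collagens had medians of 5.18 without ISC replicate 2 and 5.54 without Control replicate 1. The part of blood, marrow and muscle RNA in the other results was not tested.

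Some genes of metabolism and stress were also separated. Of 27 genes of hypoxia and glycolysis 22 had a positive change (median 0.74, and 0.30 without ISC replicate 2). In this list 9 were separated upward and 1 downward, against 9.54% and 8.73% of all genes tested. Limma called none, with 11 at an unadjusted p under 0.05, against 11.5% of all genes tested. None was called by edgeR, and DESeq2 called 3 higher. PGAM1, a glycolytic mutase, had 390.3, 682 and 384 in ISC and 212, 206 and 206 in Control (change 1.16, SE 0.24, limma adjusted p = 0.262). VEGFA, the vascular growth factor, was high in ISC replicate 2 alone, with 129, 1281 and 137 in ISC and 137, 157 and 170.5 in Control; its change was 0.87 and became -0.21 without that library. All 14 heat shock genes had a negative change (median -0.20, and -0.05 without ISC replicate 1 or -0.52 without ISC replicate 3), with 4 separated downward against 8.73% of all genes tested, and limma and both count tools called none, with 3 at an unadjusted p under 0.05. HSPB1, a small heat shock protein, had 281, 166 and 223 in ISC and 397, 356 and 382 in Control (change -0.79, SE 0.21, limma adjusted p = 0.319). Of 19 positional HOX genes 17 had a negative change (median -0.49, and -0.33 without Control replicate 2) and 5 were separated downward, against 8.73% of all genes tested. Limma and edgeR called none of the HOX genes, with 5 at an unadjusted p under 0.05, against 11.5% of all genes tested, and DESeq2 called 1 lower. HOXB6 had 53.6, 44.2 and 24.1 in ISC and 115, 83.1 and 107 in Control (change -1.36, SE 0.31, limma adjusted p = 0.313).

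The remaining called genes had reads in almost no library of one group. RAB9A, a GTPase of transport from endosomes to the trans-Golgi (Un1080:17350-17919, minus strand), had 44.0, 93.1 and 45.1 in ISC and 0 in all 3 Control libraries. Against a floor of 3 reads in each Control library it was at least 23.3-fold higher in ISC (change 5.86, SE 0.44, limma adjusted p = 0.00465), and the adjusted p was 0.11 with edgeR and 0.058 with the replicate number as a block. LOC100358370, a locus without a gene symbol in the tables used (chromosome 16:7439693-7440409, minus strand), was the only gene that fell by the test, with 0, 0 and 1.003 in ISC and 103, 43.9 and 50.5 in Control. It had 1 read in ISC and 222 in Control, a ratio of Control to ISC of 177 with a 95% counting interval of 31.5 to 7039 (change -5.62, SE 0.50, limma adjusted p = 0.0129), and 12 of 17 alternatives kept the call. It was lost without Control replicate 2 or 3, without both ISC replicate 2 and Control replicate 1, with a pseudocount of 0.1 and with the replicate number as a block. In the Fused libraries RAB9A had 19.7, 41.2 and 107 and LOC100358370 had 1.16, 3.02 and 1.09, so the Fused libraries lay nearer to ISC than to Control for both. Whether reads of a near-identical copy were assigned to either locus was not tested, and the counting rule is not given in the sources used here.

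Further genes with separated groups and the smallest p that did not pass the test were spread over metabolism and adhesion. WSB1, a subunit of a ubiquitin ligase, had 511, 661 and 489.6 in ISC and 267, 232 and 212 in Control (change 1.21, limma adjusted p = 0.139). MTHFD2, a mitochondrial enzyme of folate metabolism, had 71.8, 142 and 219.7 in ISC and 23.6, 29.5 and 17.4 in Control (change 2.46, limma adjusted p = 0.172). PYCR1, which makes proline, had 91.1, 72.8 and 63.2 in ISC and 32.1, 16.0 and 17.4 in Control (change 1.80, limma adjusted p = 0.189). Of those with the opposite sign, AKAP12, a scaffold for protein kinase A, had 145, 153 and 161 in ISC and 354, 334 and 420.1 in Control (change -1.26, SE 0.16, limma adjusted p = 0.0662). PCDH10, a protocadherin, had 1.07, 8.35 and 2.01 in ISC and 43.4, 101 and 67.0 in Control (change -4.12, SE 0.60, limma adjusted p = 0.134). PPL, periplakin, a linker of desmosomes, had 244, 179 and 206 in ISC and 542, 811 and 466 in Control (change -1.50, limma adjusted p = 0.156).

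A second comparison asked which of these genes also differed between the ISC level and the Fused level. It shares the ISC libraries with the first, so the calls of the comparisons are not independent of each other. Limma called 43 of 15404 genes (0.279%), 31 higher (0.201%) and 12 lower (0.0779%) in ISC, and with every library centred on its median 74, of which 61 were higher and 13 lower. The calls shared by both comparisons were 2 genes, COL11A1 and SRPX2. The Fused libraries also held more blood RNA, with 1.55%, 5.64% and 6.41% of reads in HBB2, against 0.480%, 5.00% and 0.421% in ISC, and its part in these calls was not tested.

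COL11A1 rose by 5.12 in ISC relative to Fused (SE 0.63, limma adjusted p = 0.0312), and SRPX2 by 3.77 (SE 0.48, limma adjusted p = 0.0312). COL2A1 had 74.3, 805 and 15.3 in Fused, below all ISC libraries but far apart from each other, and was not called (change 5.71, SE 1.22, limma adjusted p = 0.123). Of 8 cartilage collagens 1 was called, higher in ISC, against 0.201% of all genes tested. In 7 the ISC libraries lay above all Fused libraries, against 8.08% of all genes tested. COL9A1 had 17.4, 57.3 and 3.28 in Fused, above all Control libraries, and COL9A2 had 15.1, 73.4 and 7.65. The change Fused minus Control was 3.38 for COL2A1, 3.44 for COL9A1, 1.82 for COL9A2 and 0.59 for COL11A1. Limma called none of these 4 between Fused and Control. Among 20 other cartilage matrix genes 5 were called higher, against 0.201% of all genes tested. In 10 the ISC libraries lay above all Fused libraries, against 8.08%, and in 1 below, against 7.35%. CILP, with 39.5, 19.1 and 23.0 in Fused, rose by 5.59 in ISC relative to Fused (SE 0.32, limma adjusted p = 0.00275). SUSD5 rose by 2.79 (limma adjusted p = 0.0294), CYTL1 by 4.70 (limma adjusted p = 0.0278) and PRG4, the lubricant lubricin, by 5.37 (limma adjusted p = 0.0369). PRG4 differed from the cartilage collagens in the first comparison, with overlapping groups (1387, 4109 and 5494 in ISC and 4058, 2180.1 and 2250.3 in Control) and a change of 0.22 that was -0.18 without ISC replicate 3. SOX9 had 24.4, 26.2 and 16.4 in Fused and was higher by 2.37 in ISC than in Fused (limma adjusted p = 0.0369). CHAD was higher by 4.18 (limma adjusted p = 0.012). The change Fused minus Control was -1.60 for SOX9, -2.66 for CILP, -1.42 for CHAD, -0.43 for SUSD5 and -0.50 for SRPX2. A difference from Fused can thus hold a lower value in Fused as well as a higher value in ISC.

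Other genes of matrix assembly and signalling were called as well. ELN, which was not, had 411, 265 and 146 in Fused, under all ISC libraries (change 3.00, limma adjusted p = 0.0678), and LOXL3 rose by 2.51 in ISC relative to Fused (limma adjusted p = 0.0312). PLOD2 was higher by 3.05 (limma adjusted p = 0.0395), RSPO2 by 3.10 (limma adjusted p = 0.0294) and KCNK5 by 2.49 (limma adjusted p = 0.0294). The change Fused minus Control was -2.49 for ELN, -1.01 for LOXL3, -1.24 for PLOD2, -1.99 for RSPO2 and -0.07 for KCNK5. Of the adipocyte genes 8 of 24 were called lower in ISC than in Fused, against 0.0779% of all genes tested. In 18 the ISC libraries lay below all Fused libraries, against 7.35% of all genes tested. The median change was -2.29, against -0.07 for all genes tested. THRSP had 107, 77.4 and 85.3 in Fused and fell by 3.91 in ISC relative to Fused (limma adjusted p = 0.0124), and LIPE, hormone-sensitive lipase, had 182, 182 and 213 in Fused and fell by 2.83 (limma adjusted p = 0.012). FABP4, the fatty acid binding protein of fat cells, fell by 3.04 (limma adjusted p = 0.0278) and PPARG, the regulator of fat cell differentiation, by 1.93 (limma adjusted p = 0.0441). Without Fused replicate 3 limma made no call in this comparison, with 1059 genes at an unadjusted p under 0.05, and without Fused replicate 2 it called 3.

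In the authors' deposited table, 605 of 23407 genes were called at a q-value under 0.1 for ISC and Control (2.58%), 453 of them higher (1.94%) and 152 lower (0.649%) in ISC. The authors' deposited table called 7 of the 8 cartilage collagens higher, and 11 of 21 cartilage matrix genes. It also called 15 of 16 erythroid, 10 of 15 neutrophil and mast cell and 17 of 24 dividing-cell genes higher, lists whose median change was smaller without ISC replicate 2.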

How the data were processed

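RNA of 9 ligamentum flavum libraries was sequenced on an Illumina MiSeq from total RNA with a directional kit, per the labels' protocols and the series' design text. Reads were aligned to oryCun2 with TopHat, per the submitters' processing notes and the design text, and analysed with Cufflinks, per the design text. Not given in the sources used here are tool versions, the counting tool and its strand setting. Per gene the authors deposited a normalized signal, named TMM; 3 deposited tables hold the same values for all 9 libraries. The authors' deposited tables also hold a log2 fold change, a p-value, a q-value and a rank score. In every library 100% of values were whole multiples of its smallest value within a tolerance of 1e-06, which gave whole reads.

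Genes that reached a value of 1 in 3 or more of the 6 libraries were fitted with limma 3.58.1 (R 4.3.3) on log2(value + 1) with a mean-variance trend, two-sided, which understates changes of low genes. The count tools edgeR 4.0.16 and DESeq2 1.42.0 on the recovered reads, other filters, pseudocounts and left-out libraries were alternatives; the limma test was checked on simulated data. Genes were named by rule: those called, the separated genes with the smallest p, a fixed panel and up to 4 genes with the smallest p of each of 44 lists. COL10A1, COL11A2, COL27A1, CYTL1, LOX, ADIPOQ, MKX, TNMD, BGLAP, IFITM5, HBB2, PRG4, LIPE, FABP4 and PPARG lie outside it and were named after their values were seen. The comparison, members and lists were chosen with earlier results of these data known. Of 8020 rows named by a locus identifier, 764 received a symbol from a RefSeq table of another assembly (mOryCun1.1), from which only names were taken, while coordinates are the deposited ones on oryCun2. A row without a gene name (1 row) was left out. Some genes that the rule names are not reported here.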

Additional observations from a re-analysis of the deposited data

How the results depend on the processing

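Limma called 7 genes between ISC and Control, and the count moved to 4 with a pseudocount of 0.1, to 14 with all 9 libraries in the fit, to 228 with DESeq2 and to 16 without both ISC replicate 2 and Control replicate 1. Leaving out 1 library gave 4 to 38 calls: 38 without ISC replicate 1, 4 without ISC replicate 3, 22 without Control replicate 1, and 4 without Control replicate 2 or 3. Between ISC and Fused the count of 43 moved to 74 with median centring, 79 with no filter, 214 with all 9 libraries, 321 with DESeq2 and 0 without the mean-variance trend, where 1557 genes had an unadjusted p under 0.05. Leaving out 1 library gave 0 to 24 calls there: 24, 3 and 0 without Fused replicates 1, 2 and 3, and 9, 12 and 15 without ISC replicates 1, 2 and 3. Deviations from the group means in same-numbered libraries had correlations of 0.148, -0.0472 and 0.0376 between ISC and Control. Between ISC and Fused they were 0.319, 0.319 and -0.104. Differently numbered libraries gave -0.141 to 0.134 between ISC and Control and -0.508 to 0.272 between ISC and Fused. With 3 libraries in each group these values cannot decide whether the replicate numbers pair libraries. With the replicate number as a block, 3 genes were called against Control and 88 against Fused. Among genes named above and tested, 5 changed sign: FGF18 ranged from -0.78 without ISC replicate 3 to 1.46 without ISC replicate 1, CTGF from -0.55 without ISC replicate 3 to 1.02 without ISC replicate 2 (and -0.06 without ISC replicate 1, -0.12 without Control replicate 3), and VEGFA from -0.21 without ISC replicate 2 to 1.44 without ISC replicate 1. VEGFA was at -0.30 without both ISC replicate 2 and Control replicate 1. LOX ranged from -0.41 without ISC replicate 1 to 0.29 without ISC replicate 3 and was at 0.016 with DESeq2 and 0.017 without Control replicate 2, and PRG4 from -0.18 without ISC replicate 3 to 0.81 without ISC replicate 1. The causes were not tested. Of 69 genes named but not called by limma and tested by DESeq2, that tool called 39, and edgeR called none of 74. Over all 14348 genes DESeq2 called 228. Many of the named genes were chosen for a small limma p in the same libraries, so these shares are not independent evidence. Values under that of 3 reads (2.40 to 3.58) are limited by counting error.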
